A study of Triticum aestivum and Triticum turgidum subsp. durum with 27 samples.

Results

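The response of glumes to severe drought was compared between the durum wheat Creso and the bread wheat Chinese Spring (CS), gene by gene. For every probe set the change from well watered plants (CTRL) to severe stress (SS) was taken in each genotype, and the change in CS was subtracted from that in Creso. A positive difference therefore means that a transcript rose more, or fell less, in Creso. The comparison rests on 12 of 27 arrays, which are 3 for each of Creso CTRL, Creso SS, CS CTRL and CS SS. All probe sets of the Affymetrix Wheat Genome Array except the 111 manufacturer's controls could enter, and 34089 of 61179 were tested, namely those whose 3 values in some condition of the series (9 in all) each exceeded the median of their array.

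Glumes are the green bracts that enclose the wheat floret, and they photosynthesise during grain filling. Creso is a tetraploid with the A and B genomes, and CS is a hexaploid that also carries the D genome. Watering was stopped after anthesis in the stressed plants, while controls stayed near field capacity (28% soil water). By the labels glumes were taken 7 days after anthesis in Creso and 10 days after it in CS, while the study's methods name later days in both. The study describes the arrays as biological triplicates. It reports a more negative leaf water potential in Creso than in CS, in the controls as well as under stress. Species, genome number, sampling day and plant water status cannot be told apart in this comparison. A further line, CS_5AL-10, is CS with a terminal deletion on the long arm of 5A, and its CTRL and SS arrays (3 each, also at 10 days) share no array with the others. They were grouped by their titles, since the genotype field of their labels reads CS.

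Drought stops cell expansion early and lowers photosynthesis as stomata close. Abscisic acid (ABA), made from carotenoids, carries the signal, and dehydrins, late embryogenesis abundant (LEA) proteins and proline protect the drying cell. Plants also hold a set of pathogenesis-related (PR) proteins, such as chitinases and osmotin-like proteins, which are secreted or vacuolar and act against fungal walls and membranes. Several of them are known to respond to osmotic stress and to hormones as well as to infection.

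The deposited values are linear intensities, and array medians ran from 59.1 to 99.1 over the series. All differences below are on the log2(intensity + 16) scale after centring each array on the common median, and a probe set was called where limma's p, adjusted by Benjamini-Hochberg over the 34089 tested, was under 0.05 and the difference 2-fold or more. The samples differed in transcripts of the grain. The mean log2 intensity of 8 endosperm storage protein probe sets lay between 5.25 and 5.36 on the Creso CTRL arrays and between 5.01 and 5.80 at SS. In CS it lay between 11.51 and 12.13 in CTRL and was 9.62, 5.80 and 11.10 on the SS arrays. Their mean was thus lower at SS than in CTRL on every CS array, while in Creso the groups overlapped. Their part in the differences below was not tested other than by a fit with their mean as a covariate. For 4 pollen and anther probe sets, all from a table that the study selected as changed, the shift was in Creso. Their mean lay between 10.28 and 10.61 in Creso CTRL and between 8.73 and 9.29 at SS. In CS it lay between 9.43 and 9.60 in CTRL and between 8.95 and 9.80 at SS, which overlap. The part of these 4 in the differences was not tested. An intensity falls alike when fewer cells of a type are present and when each holds less RNA, and the arrays cannot tell these apart.

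The severe stress response differed between Creso and CS for 861 probe sets, 2.53% of those tested. Of these, 451 had a higher response in Creso (1.32%) and 410 a lower one (1.2%). The median difference was 1.84 among the higher and -1.83 among the lower, against 0.07 over all tested probe sets, of which 55.3% were positive. The larger side depended on the scaling: without centring the split was 469 higher and 723 lower, centred on the tested probe sets 435 and 643, and after quantile normalization 467 and 677. Single arrays moved the counts too. Without Creso SS replicate 2 they were 256 and 221, without Creso SS replicate 1 273 and 243, without CS CTRL replicate 2 319 and 207, without CS CTRL replicate 3 288 and 259, without CS SS replicate 2 285 and 247, and without CS SS replicate 3 363 and 250. With each array left out in turn, 350 of the 861 probe sets were called every time, and none was called in the other direction in any fit.

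**Figure D1:**
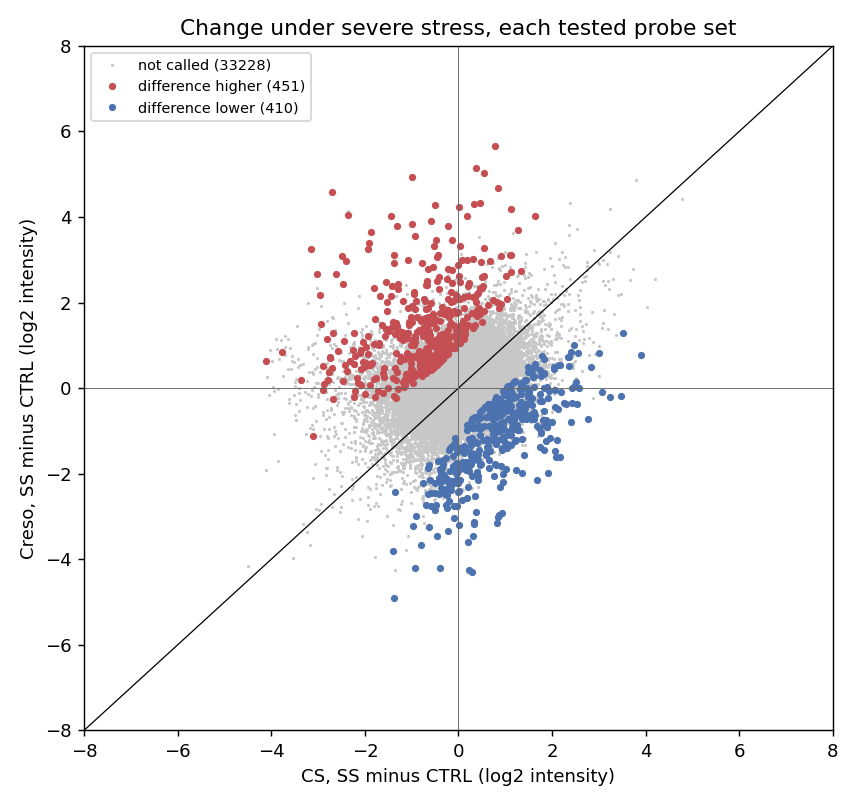
Each point is 1 of 34089 tested probe sets, with its SS minus CTRL change in CS on the x axis and in Creso on the y axis, both in log2 intensity. Coloured points passed the test of the difference (451 higher in Creso in red, 410 lower in blue), and the diagonal marks equal responses; red points lie above it and blue points below.

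Within each genotype, 4.45% of tested probe sets rose at SS and 2.87% fell in Creso (7.32% together), 3.61% and 2.26% did so in CS (5.87%), and 2.72% and 2.97% in CS_5AL-10 (5.69%). The 861 probe sets held several kinds of response. Among the 451 higher ones, 213 rose in Creso without a call in CS, 83 fell in CS without a call in Creso, 26 rose in Creso and fell in CS, 7 rose in both and 1 fell in both. The other 121 passed only the test of the difference. Among the 410 lower ones, 166 fell in Creso without a call in CS and 141 rose in CS without a call in Creso. Another 15 fell in Creso and rose in CS, 2 fell in both, 2 rose in both and 84 passed only the test of the difference. Responses in opposite directions were thus called for 41 probe sets, 0.12% of those tested. Where Creso had the lower response, its level in CTRL was often the higher one, with a median gap of 1.48 (Creso minus CS, log2) in CTRL and -0.29 at SS. For the higher set the median gap was -0.57 in CTRL and 1.17 at SS. The CTRL gap is itself a part of the difference, so these medians describe the sets and test nothing. In all, 175 of the 861 were not above the array median on all 3 arrays of CTRL or of SS in one of the genotypes.

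The response of CS_5AL-10 was measured on arrays of its own. For 717 of the 861 probe sets (83.3%) its change at SS was nearer to that of CS than to that of Creso, against 59.7% of all tested probe sets. Of the 41 probe sets with opposite responses, 40 changed in CS_5AL-10 with the sign seen in CS, and 24 of them with a call, where 70.9% of all tested probe sets had the same sign in both lines. These are counts with no test, and CS_5AL-10 descends from CS.

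Names could be given to a minority of the probe sets. Of the 861, 178 carried an informative name, nearly all an Arabidopsis match from a table of probe sets that the study selected for changing in these same samples. Among tested probe sets with such a name 16.4% were called in the difference, 7.92% higher and 8.47% lower, and the lists below are read against these shares rather than against those of the whole array. Of the named probe sets 24% rose and 17.8% fell at SS in Creso, 22.5% and 13.6% did so in CS, and 23.1% and 15.9% in CS_5AL-10. Because of that selection the lists are not independent evidence of a direction.

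Genes of pathogen defence were called as rising more often in Creso than in CS. Of 46 probe sets matching PR proteins, chitinases, osmotins and similar proteins, 15 had a higher response in Creso, 4 a lower one and 27 no call, with a median difference of 1.0. The share called was 41.3%, beside the 16.4% of all named probe sets. In Creso 20 rose and 7 fell, with a median change of 0.91, in CS 5 rose and 5 fell (median -0.36), and in CS_5AL-10 4 rose and 23 fell (median -1.10). Over the alternative fits between 12 and 22 of the 46 were called, and 11 higher and 1 lower were called whichever array was left out. The mean log2 intensity of all 46 lay between 8.92 and 9.31 on the Creso CTRL arrays and between 9.57 and 10.09 at SS, so the groups did not overlap, and in CS between 8.66 and 8.81 in CTRL and between 8.38 and 8.87 at SS, where they did.

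Chitinases cut the chitin of fungal walls. The class IV chitinase probe set had intensities of 310, 359 and 134 in Creso CTRL and 3068, 2352 and 1165 at SS. In CS it went the other way, from 627, 876 and 1209.8 to 99.7, 140 and 185. Neither pair of groups overlapped, and the order of the genotypes in CTRL was reversed at SS. Its change was 3.09 (SE 0.40, adjusted p = 1.22e-05) in Creso and -2.48 (SE 0.40, adjusted p = 0.000238) in CS, a difference of 5.57 (SE 0.56, adjusted p = 1.5e-05). In CS_5AL-10 it also fell, from 4176, 4579.8 and 2126 to 366, 261 and 320.4. At moderate stress (MS) the Creso arrays read 546, 904 and 926 and the CS arrays 258, 184 and 257, and both means lay between those of CTRL and SS. A basic endochitinase match rose in Creso from 619, 697 and 636 to 12853, 6899 and 3408. In CS it read 74.4, 157 and 146 in CTRL and 109.9, 38.9 and 107 at SS, which overlap, and the difference was 3.95 (SE 0.60, adjusted p = 0.00072).

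Other PR families rose in Creso too. Osmotins are thaumatin-like proteins that permeabilise fungal membranes and were first known from salt-adapted tobacco cells. The osmotin-like probe set stood at 426, 332 and 374 in Creso CTRL and at 10540, 6533 and 2857 under SS. The CS arrays read 344, 475 and 839 in CTRL and 101, 115 and 419 at SS, and overlapped because of SS replicate 3. The difference was 5.48 (SE 0.78, adjusted p = 0.000383); the change in CS, -1.45 (SE 0.55, adjusted p = 0.0905), was called without SS replicate 3 (-2.07, adjusted p = 0.0226). A match to a PR-1-like protein, a widely used marker of salicylate-dependent defence, rose from 43.3, 93.02 and 98.5 to 1085, 551 and 559.8 in Creso. In CS it went from 156, 139 and 134 to 53.1, 21.5 and 62.2, again with no overlap in either genotype.

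For the PR-1-like probe set the difference was 4.49 (SE 0.58, adjusted p = 0.000207). Its CS SS values were all under the array median, and the difference ran from 3.43 to 5.08 over the alternatives. Its fall in CS, -1.39 (SE 0.41, adjusted p = 0.0274), lost its call without CS CTRL replicate 1, 2 or 3 (adjusted p = 0.0751, 0.0662 and 0.066) or without CS SS replicate 2 (adjusted p = 0.145), and was under 2-fold with 64 added before the logarithm in place of 16 (-0.90). An allergen V5/Tpx-1-related match, of the same CAP protein family as PR-1, rose in Creso from 461, 338 and 464 to 3925, 3348 and 2043. It went from 553, 700 and 662 to 175, 236 and 277 in CS. The Creso SS arrays were the highest of the 12 and the CS SS arrays the lowest. The difference was 4.31 (SE 0.48, adjusted p = 4.71e-05), and the fall in CS, -1.38 (SE 0.34, adjusted p = 0.00927), was lost without CS SS replicate 1 (adjusted p = 0.0515). The differences of these 5 probe sets passed the test with any array left out and with the storage protein mean as a covariate. Probe sets were named mostly because their calls held with every array left out, so that outcome is no separate support. Of all 861 called, 350 held in this way.

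Enzymes and a kinase outside the PR list had the same opposed pattern. A UDP-glucosyl transferase match, of the enzymes that attach glucose to hormones and secondary metabolites, went from 87.8, 87.98 and 137 to 1598, 1115 and 593 in Creso. In CS it dropped from 486, 429 and 899 to 78.5, 10.9 and 88.8, and the groups were apart in both. Its difference was 6.41 (SE 0.92, adjusted p = 0.00041). Of the CS SS arrays 1 of 3 was above the array median for this probe set, and the difference ran from 5.20 to 7.11 over the alternatives. A protein kinase family match rose from 554, 973 and 709 to 6238, 4153 and 3097 in Creso. It fell from 1185, 741 and 1559 to 72.7, 106 and 209 in CS. The difference was 5.69 (SE 0.69, adjusted p = 8.11e-05), with calls in both genotypes (2.68 and -3.02), and CS_5AL-10 fell by 4.26.

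A match to ent-kaurene oxidase, which catalyses early steps of gibberellin synthesis and in cereals has relatives in the making of diterpenoid phytoalexins, behaved likewise at lower levels. This probe set read 19.2, 37.5 and 39.3 in Creso CTRL and 448, 322 and 226 at SS. The CS arrays read 138, 17.7 and 196 in CTRL and 2.28, 2.20 and 4.11 at SS. The SS values of CS and the CTRL values of Creso were below the array median, so the size of the difference, 5.37 (SE 0.74, adjusted p = 0.000318), depends on the value added before the logarithm and ran from 3.34 with 64 to 7.85 with 1. The glutathione S-transferase match, of a family that conjugates toxic compounds, was high throughout. It rose in Creso from 1905, 2721 and 2472 to 5639.7, 6718 and 4168 and fell in CS from 1344, 1481 and 1238 to 489, 597 and 491. No groups overlapped and the difference was 2.63 (SE 0.30, adjusted p = 4.71e-05). The change in CS_5AL-10, -0.42, had no call (adjusted p = 0.217). Of 35 probe sets for antioxidant and detoxification enzymes, 4 were called higher, all of them glutathione S-transferases, and 2 lower, a share of 17.1% that is close to the 16.4% of all named probe sets.

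**Figure D2:**
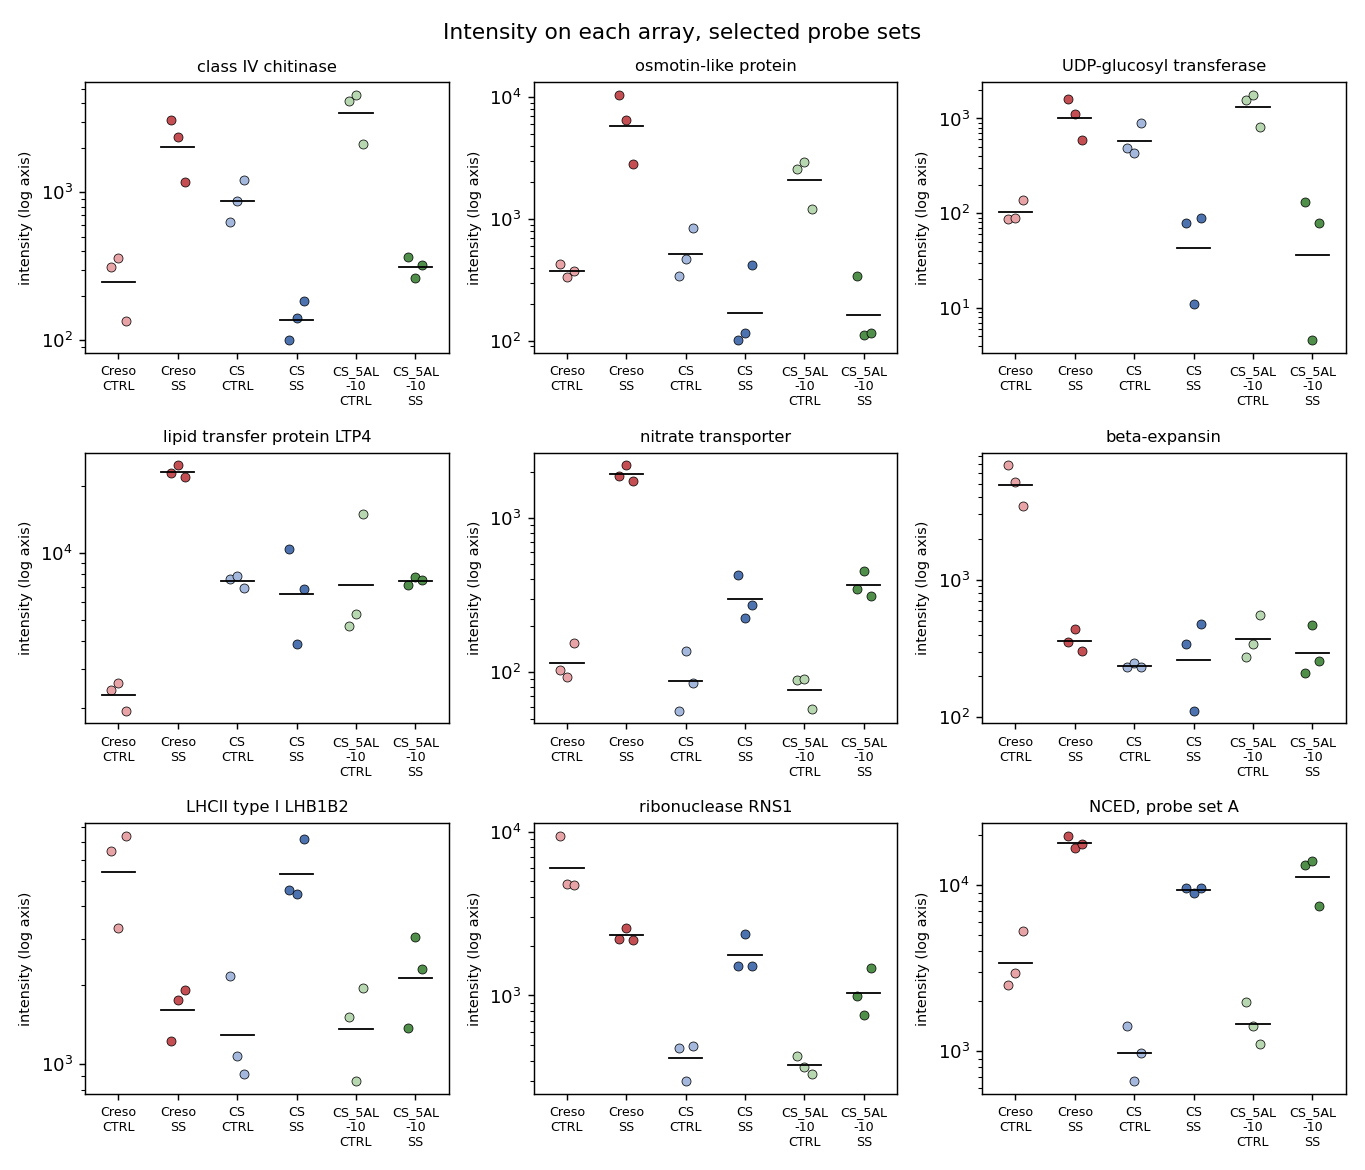
Deposited intensity (log axis) of 9 probe sets on each CTRL and SS array of Creso, CS and CS_5AL-10; points are single arrays and bars geometric means of 3. The class IV chitinase, osmotin-like and UDP-glucosyl transferase probe sets rise in Creso and have lower means at SS in both bread wheats. For the osmotin-like probe set the CS groups overlap and the change in CS was not called. The beta-expansin falls in Creso only, and the NCED probe set shown rises in all.

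Another group rose in Creso without a call in CS. A transferase family match had the largest rise in Creso among the probe sets named here, from 28.4, 1.32 and 42.05 to 2365, 1404 and 1268. The CS arrays read 301, 182 and 125 in CTRL and 332, 261 and 403 at SS. The Creso CTRL values lay below the array median, and the difference was 4.88 (SE 0.58, adjusted p = 6.53e-05), running from 3.73 with 64 added to 6.14 with 1. The lipid transfer protein match LTP4, a small secreted protein of the kind that carries lipids to the cuticle, rose from 2404, 2584 and 1941 to 22896, 24819 and 21959 in Creso. In CS it was at 7641, 7816 and 6960.5 in CTRL and at 10364, 3861 and 6874 at SS. Creso had the lower level in CTRL and the higher level at SS on every array, with a difference of 3.61 (SE 0.48, adjusted p = 0.000281). Of 23 probe sets for lipid transfer and wax, 2 were called higher and 1 lower (median 0.80), a share of 13% beside the 16.4% of all named probe sets.

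The large subunit of ADP-glucose pyrophosphorylase, the enzyme that commits sugar to starch, rose in Creso and had no call in CS. It read 34.5, 22.7 and 12.7 in Creso CTRL and 659, 596 and 452 at SS. In CS it read 1406, 1173 and 1104 in CTRL and 755, 26.7 and 374 at SS, and the lowest SS value came from replicate 2, the array with the lowest storage protein mean. The difference was 6.40 (SE 1.43, adjusted p = 0.0149), and 4.59 with the storage protein mean as a covariate. All 3 Creso CTRL values lay under the array median, and the difference reached 7.36 with 1 added. Whether RNA of the grain had a part in it was not tested further.

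Among transporters of nitrogen compounds the called differences were all positive. Of 11 probe sets for nitrate, amino acid and peptide transporters, 4 had a higher response in Creso and 0 a lower one (median 0.85). The share called was 36.4%, beside the 16.4% of all named probe sets, and 3 of the 4 were called whichever array was left out. In Creso 4 of the 11 rose and 1 fell, while in CS 2 rose and 3 fell and in CS_5AL-10 2 rose and 6 fell. The lysine and histidine transporter match, an amino acid importer of the plasma membrane, went from 271, 202 and 268 to 1214, 1132 and 631 in Creso. It read 691, 986 and 1021 in CS CTRL and 716, 957 and 701 at SS. The levels of the genotypes were apart in CTRL and overlapped at SS, and the difference was 2.15 (SE 0.38, adjusted p = 0.00263).

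The oligopeptide transporter match had a smaller and very even difference. In Creso it rose from 940.4, 833 and 1012 to 2823, 2917 and 2465. In CS it was at 2656, 2848 and 2633 in CTRL and 3909, 3168 and 3306 at SS. The change was 1.68 (SE 0.13, adjusted p = 1.52e-08) in Creso and 0.39 (SE 0.13, adjusted p = 0.046) in CS, under the 2-fold threshold in the latter, with a difference of 1.28 (SE 0.18, adjusted p = 0.00036). The nitrate transporter match rose in both genotypes, to 1879, 2202 and 1734 at SS in Creso and 424, 226 and 272 in CS, and its difference was 2.39.

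Among photosynthesis genes the called differences were all negative. Of 43 probe sets for light-harvesting proteins, photosystem subunits and Rubisco-related proteins, 0 had a higher response in Creso, 10 a lower one and 33 no call. The share called was 23.3%, beside the 16.4% of all named probe sets, and the median difference was -0.81. Under stress 10 rose and 4 fell in Creso, while 27 rose and 1 fell in CS and 28 and 1 in CS_5AL-10. The median rise was 0.53 in Creso, against 1.20 and 1.28 in the bread wheats CS and CS_5AL-10. The mean log2 intensity of the 43 lay between 10.80 and 11.33 on the Creso CTRL arrays and between 9.96 and 10.52 on those of CS, and at SS between 11.47 and 11.68 in Creso and 11.19 and 11.41 in CS. Creso thus started higher and the genotypes were closer at SS. Over the alternative fits 5 to 14 of the 43 were called, and 5 were called whichever array was left out. One called member, a uclacyanin match, is a copper protein outside the photosynthetic chain that the list's name pattern took in.

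The largest difference in this list was that of LHB1B2, a chlorophyll a/b protein of the main antenna of photosystem II. It fell in Creso from 6489, 3304 and 7424 to 1223, 1752 and 1922. It rose in CS from 2167, 1076 and 917 to 4609, 4448 and 7238. All groups were apart, and the genotype with the higher level in CTRL had the lower one at SS. The changes were -1.62 (SE 0.39, adjusted p = 0.00671) and 2.07 (SE 0.39, adjusted p = 0.0011), a difference of -3.69 (SE 0.55, adjusted p = 0.000618). The change of LHB1B2 in CS_5AL-10, 0.71, had no call (adjusted p = 0.273). A second probe set of the same match had a difference of -3.54, with changes of -1.47 in Creso and 2.06 in CS.

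Other antenna genes rose in CS and had no call in Creso. The LHCB2.1 probe set read 20178, 15845 and 21702 in Creso CTRL and 22272, 22469 and 22107 at SS. In CS it went from 6842, 3846 and 3486 to 14779, 16911 and 13696. The difference was -1.43 (SE 0.29, adjusted p = 0.00756), and within each condition all Creso arrays were above those of CS. For LHCB3 the Creso arrays read 19131, 12606 and 18995 in CTRL and 12077, 13114 and 14210 at SS, which overlap. The CS arrays read 10325, 4705 and 4758 in CTRL and 12904, 20190 and 17402 at SS. Its difference of -1.69 (SE 0.36, adjusted p = 0.0107) narrowly missed the test when the 12 arrays were fitted alone (adjusted p = 0.0501).

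A match to the thylakoid ascorbate peroxidase, which removes hydrogen peroxide formed at photosystem I, followed the antenna genes. It read 2195, 2028 and 1351 in Creso CTRL and 1158, 1339 and 1833 at SS. It rose in CS from 688, 481 and 601 to 1727, 1946 and 1485. The difference was -1.80 (SE 0.32, adjusted p = 0.00275), and at SS the genotypes overlapped.

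Expansin matches fell in Creso and had no call in CS. Expansins loosen the wall so that the cell can enlarge. The beta-expansin match read 6851, 5120 and 3456 in Creso CTRL and 353, 436 and 304 at SS. The CS arrays read 234, 248 and 231 in CTRL and 340.1, 112 and 478 at SS. The Creso CTRL arrays stood apart from the other 9, and at SS the genotypes overlapped. The change was -3.59 (SE 0.42, adjusted p = 4.45e-06) in Creso and 0.20 (SE 0.42, adjusted p = 0.807) in CS, a difference of -3.79 (SE 0.60, adjusted p = 0.000999). Creso was already lower at MS, with 625, 821 and 1290.

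The expansin EXP1 match went from 5029, 6569 and 3079.6 to 508, 422 and 478 in Creso. In CS it was at 304, 281 and 279.8 in CTRL and 366, 204 and 575 at SS, and the difference was -3.47 (SE 0.77, adjusted p = 0.0144). An extensin-like match, of the structural glycoproteins of the wall, fell in Creso from 512, 737 and 394 to 29.3, 50.6 and 58.1, under the array median as in CS, where it read 69.5, 80.7 and 44.3 in CTRL and 58.8, 68.6 and 41.6 at SS. Its difference was -2.94 (SE 0.52, adjusted p = 0.00275). A leucine-rich repeat extensin match moved against them, rising in Creso from 121, 223 and 308 to 2017, 2447 and 1468, with 113, 148 and 126 in CS CTRL and 234, 137 and 201 at SS. It had a difference of 2.74 (SE 0.49, adjusted p = 0.003). Of 41 cell wall probe sets 1 was called higher and 6 lower (17.1%, median -0.08), a share close to that of all named probe sets, and 3 of the 6 lower calls held whichever array was left out.

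Further genes fell in Creso without a call in CS. A nudix hydrolase match, of enzymes that split nucleoside diphosphate derivatives, went from 2084, 1572 and 1689.5 to 152, 281 and 261. The CS arrays read 496, 412 and 601 in CTRL and 406, 440.1 and 569 at SS. The genotypes changed order, with a difference of -2.73 (SE 0.48, adjusted p = 0.00275). An ethylene response factor match, a transcription factor of the AP2 family, fell from 8758, 5703 and 5952 to 966, 1367 and 1266 in Creso, against 3338, 2736 and 3971 in CS CTRL and 2262, 2175 and 3047 at SS. Its difference was -1.97 (SE 0.33, adjusted p = 0.00174), while CS_5AL-10 fell too, by 1.36.

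Several genes rose in CS and either fell or had no call in Creso. The match to RNS1, a secreted ribonuclease that is induced in Arabidopsis by phosphate starvation and wounding, went from 479, 299.7 and 492 to 1512, 2379 and 1511 in CS. In Creso it fell from 9445, 4787 and 4729.9 to 2215, 2595 and 2192. The levels were far apart in CTRL and overlapped at SS, with a difference of -3.32 (SE 0.48, adjusted p = 0.00041). The fall in Creso, -1.22 (SE 0.34, adjusted p = 0.0164), did not pass the test without Creso CTRL replicate 1 (-0.82, adjusted p = 0.113) or SS replicate 1 or 3 (adjusted p = 0.0553 and 0.0505). A dormancy/auxin associated match, of a family expressed in resting buds, rose in CS from 272, 107 and 112 to 506, 718 and 962 and fell in Creso from 2242, 1866 and 893 to 435, 377 and 578. The difference was -3.77 (SE 0.70, adjusted p = 0.00399), and the change in CS_5AL-10, 0.93, had no call (adjusted p = 0.26). Its fall in Creso, -1.60 (SE 0.50, adjusted p = 0.033), was lost without CTRL replicate 1 or 2 (adjusted p = 0.136 and 0.103) and without SS replicate 1 or 2 (adjusted p = 0.0887 and 0.114).

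The match to UGT72B1, a glucosyltransferase that in Arabidopsis acts on monolignols and chlorinated phenols, rose only in the bread wheats. It went from 117, 157 and 168 to 3267, 930.5 and 1659 in CS and from 171, 183 and 133 to 1136, 2291 and 506 in CS_5AL-10. The Creso arrays read 81.1, 122 and 239 in CTRL and 83.5, 139.8 and 95.3 at SS. The genotypes overlapped in CTRL and were apart at SS, with a difference of -3.67 (SE 0.62, adjusted p = 0.00192). A glycosyl hydrolase family 1 match, of the beta-glucosidases, rose in CS from 1763, 744 and 1392 to 7757, 8862 and 7866. In Creso it was at 13232, 14960 and 11767 in CTRL and 5987, 6999 and 9580 at SS. Its difference was -3.48 (SE 0.62, adjusted p = 0.00267). The rise was not shared by CS_5AL-10, where the change was 0.24 without a call (adjusted p = 0.799).

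Among probe sets that the study had selected as changed, protective proteins of drying cells rose in both genotypes more often than they fell. Of 26 probe sets for dehydrins and LEA proteins, 14 rose and 1 fell in Creso, 12 rose and 2 fell in CS, and the median changes were 1.36 and 1.27. All 26 came from the study's table of changed probe sets, so frequent responses were built in. The study reports that few of the LEA probe sets on the array were raised. In the difference 1 was called higher, 3 lower and 22 not, a share of 15.4% beside the 16.4% of all named probe sets. The match to a LEA-related protein rose in Creso from 8384, 9133 and 8275 to 24516, 23211 and 17968. It read 12752, 17688 and 12967 in CS CTRL and 16974, 10955 and 9672 at SS, and the difference was 1.65 (SE 0.29, adjusted p = 0.00266). The match to a small hydrophobic protein of the cold- and salt-responsive membrane type rose in CS from 963, 800.5 and 704 to 2036, 1905 and 2666. In Creso it read 3048, 3566 and 2102 in CTRL and 1559, 1578 and 1515 at SS, and the difference was -2.18 (SE 0.40, adjusted p = 0.00316).

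The dehydrin XERO2 match rose in CS, with 61.5, 35.8 and 4.65 in CTRL and 218, 129 and 125 at SS. All 6 Creso arrays stayed below the array median, at 23.02, 26.1 and 58.4 and 11.3, 22.3 and 0.85. Its difference of -2.80 (SE 0.62, adjusted p = 0.0137) missed the test when the 12 arrays were fitted alone (adjusted p = 0.0578) and ran from -1.54 with 64 added to -4.66 with 1. A glycine-rich protein match rose in CS from 297, 281 and 178 to 7028, 2299.5 and 3327. The Creso arrays already read 981, 1776 and 2441 in CTRL and 2218, 2459.8 and 2951 at SS. Its difference was -3.14 (SE 0.54, adjusted p = 0.0023).

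Water channels were called in both directions. Of 10 aquaporin probe sets 2 were called higher and 2 lower, a share of 40% beside the 16.4% of all named probe sets. Over the alternative fits between 1 and 4 of the 10 were called, and 0 higher and 1 lower were called whichever array was left out. The MIP family probe set rose in CS from 5142, 4787 and 4800 to 17056, 14988 and 19143 and in CS_5AL-10 from 5426, 5586 and 4338 to 25219, 23749 and 20459. In Creso it was not above the array median on any array, with 9.44, 16.9 and 5.82 in CTRL and 6.08, 13.3 and 5.32 at SS. The difference of -1.84 (SE 0.24, adjusted p = 0.000207) is therefore the rise in bread wheat alone.

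Among signalling genes, a protein phosphatase 2C match, of the family that holds back the ABA signal, fell in Creso from 305, 301 and 388 to 128, 80.03 and 162. In CS it was at 276, 268 and 276 in CTRL and 570.4, 500.1 and 399 at SS. The groups were apart in both genotypes, and the difference was -2.06 (SE 0.43, adjusted p = 0.0092). The change in CS, 0.84 (SE 0.30, adjusted p = 0.0738), was not called. The fall in Creso, -1.22 (SE 0.30, adjusted p = 0.00829), was not called without SS replicate 2 (-0.97, adjusted p = 0.0644). CIPK10, a kinase that works with calcineurin B-like calcium sensors, had a difference of -2.34 (SE 0.54, adjusted p = 0.0188), with 3230, 2605 and 3345 in Creso CTRL and 4580, 3124 and 4216 at SS, and 308, 228 and 232 in CS CTRL and 2545, 1212 and 2027 at SS. The call was lost without Creso SS replicate 2 (adjusted p = 0.0617) and without CS CTRL replicate 2 (adjusted p = 0.0527). Of 14 ABA signalling probe sets 3 were called lower and 0 higher, a share of 21.4% beside the 16.4% of all named probe sets. Over the alternative fits between 1 and 4 of these 14 were called, and 1 of the 3 was called whichever array was left out.

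A transcription factor of the NAM family, to which many stress and senescence regulators belong, rose in Creso from 843, 869 and 1123 to 2600.5, 3149 and 2943. It stayed higher in CS, at 10004, 8332 and 8988 in CTRL and 8916, 8229 and 6584 at SS. The difference was 1.90 (SE 0.32, adjusted p = 0.00188). Of 29 transcription factor probe sets 2 were called higher and 3 lower, a share of 17.2% beside the 16.4% of all named probe sets.

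The synthesis of ABA and of proline gave no call in the difference. Only 3 of the 25 and 0 of the 12 probe sets of these lists came from the study's table, so their share is to be read against the 2.53% of all tested, and 0 calls are close to it. Of 25 tested probe sets for carotenoid and ABA synthesis, 8 rose and 0 fell in Creso and 10 rose and 0 fell in CS, with a median difference of -0.31. Of 12 for proline metabolism, 2 rose in Creso and 3 in CS, with 0 falls and a median difference of -0.06. For NCED, the enzyme that cleaves a carotenoid in the committed step of ABA synthesis, the probe sets shown here rose in both. The study reports further NCED probe sets on the array that were not expressed or did not change under drought. The first NCED probe set shown went from 2494, 2975 and 5286 to 19961, 16728 and 17743 in Creso. It went from 1416, 659 and 973 to 9632, 9022 and 9671 in CS, with no overlap in either. The difference was -0.77 (SE 0.39, adjusted p = 0.325), with a 95% interval of -1.58 to 0.04. A second NCED probe set had changes of 2.20 in Creso and 3.48 in CS, and its interval for the difference was -2.63 to 0.08.

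P5CS, which makes the first intermediate of proline from glutamate, rose from 8572, 10061 and 7631 to 34855, 37042 and 35345 in Creso and from 2239, 2458 and 2016 to 24979, 10073 and 8045 in CS. Creso was higher on all arrays in both conditions. The difference in response was -0.38 (SE 0.48, adjusted p = 0.742), with an interval of -1.36 to 0.61. Zeaxanthin epoxidase, which makes the epoxy-carotenoids upstream of NCED, rose by 1.42 in Creso and 1.35 in CS, with an interval for the difference of -0.59 to 0.75. Ornithine cyclodeaminase, a name given to an enzyme that can make proline from ornithine, changed by 1.10 in Creso and 1.11 in CS. Its interval was -0.66 to 0.66. Both changes were near the 2-fold threshold. The one in CS was under it without CTRL replicate 2 (0.95) or SS replicate 1 (0.92), and the one in Creso with 64 added (0.95), without centring (0.97) or after quantile normalization (0.90).

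Beta-carotene hydroxylase, an earlier step in the carotenoid path, lay near the threshold. It read 314, 559 and 271 in Creso CTRL and 191, 175 and 208 at SS, and 169, 113 and 93.7 in CS CTRL and 742, 297 and 250.4 at SS. The groups were apart in both genotypes and in opposite order. The difference of -2.32 (SE 0.66, adjusted p = 0.0542) missed the test, and it passed without Creso CTRL replicate 3 (adjusted p = 0.0481) or CS CTRL replicate 1 (adjusted p = 0.045), and under 7 other alternatives. The adjusted p was 0.0408 without centring, 0.047 centred on the tested probe sets, 0.0376 after quantile normalization, 0.015 with 64 added, 0.0343 with the 12 arrays alone, 0.0132 with the replicate block and 0.0216 with the storage protein covariate. The rise in CS, 1.58 (SE 0.46, adjusted p = 0.0276), did not pass without CS CTRL replicate 2 or 3 (adjusted p = 0.0962 and 0.112) or SS replicate 1 (adjusted p = 0.162), nor with 1 added in place of 16 (adjusted p = 0.172).

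Most other lists had a share of calls near that of all named probe sets or none. Of 11 probe sets for tubulins, actins and kinesins and 10 for histones and the cell cycle, 0 were called in the difference, with medians of -0.38 and 0.36. Of 31 for ribosomal proteins and ribosome assembly 4 were called higher and 1 lower (16.1%), of 18 for sugars and fructans 1 and 2 (16.7%), of 11 for heat shock proteins and chaperones 0 and 2 (18.2%). Of 17 for senescence and protein breakdown 3 were higher and 3 lower (35.3%), above that share. Over the alternative fits between 3 and 7 of these 17 were called, and 2 higher and 1 lower were called whichever array was left out. Of 23 for ethylene, auxin, gibberellin and jasmonate 2 were higher and 2 lower (17.4%). The 8 endosperm storage protein probe sets all had positive differences, with a median of 2.89, and 0 were called. The only probe set in the grain starch synthesis list was not called. That list did not take in the called ADP-glucose pyrophosphorylase large subunit given above. Of 4 for pollen and anther 0 were higher and 2 lower (50%), and all 4 fell in Creso while 0 were called in CS.

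**Figure D3:**
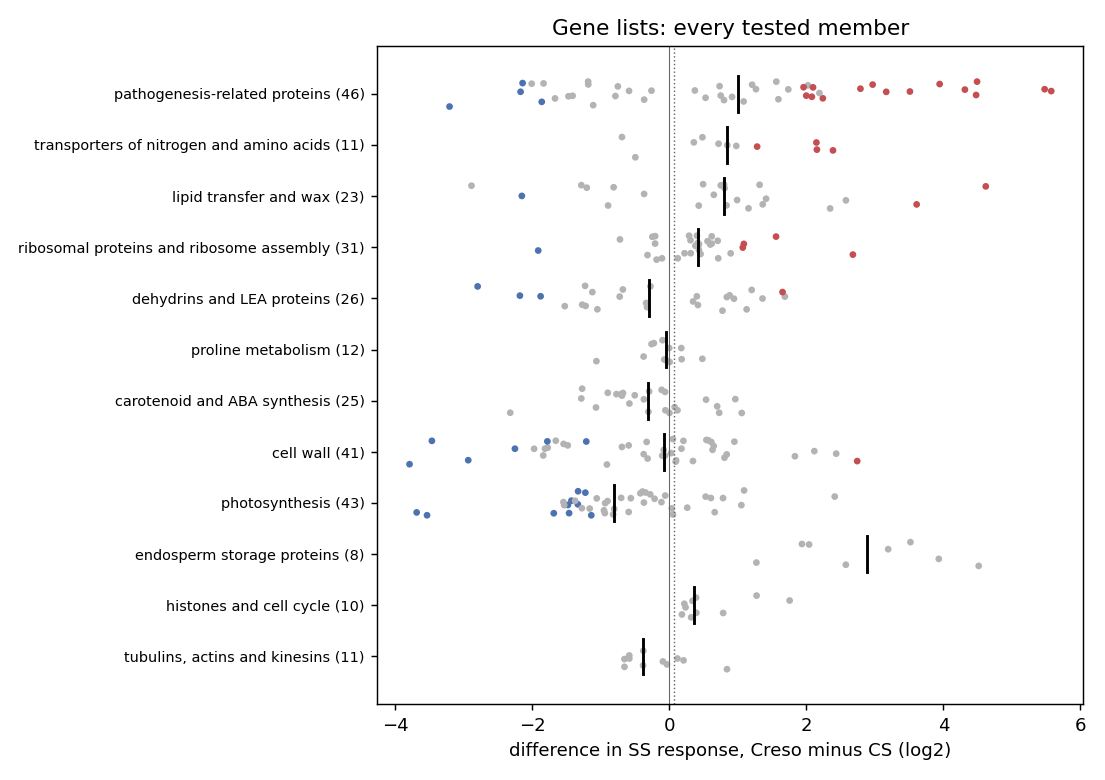
Each point is a tested probe set of 12 lists, at its difference in SS response, Creso minus CS (log2, x axis); red and blue points were called higher and lower, black bars are list medians, the dotted line is the median of all tested probe sets (0.07) and numbers in parentheses are members. Called PR members lie mostly to the right, called photosynthesis members all to the left, and no proline or ABA synthesis member was called.

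**Figure D4:**
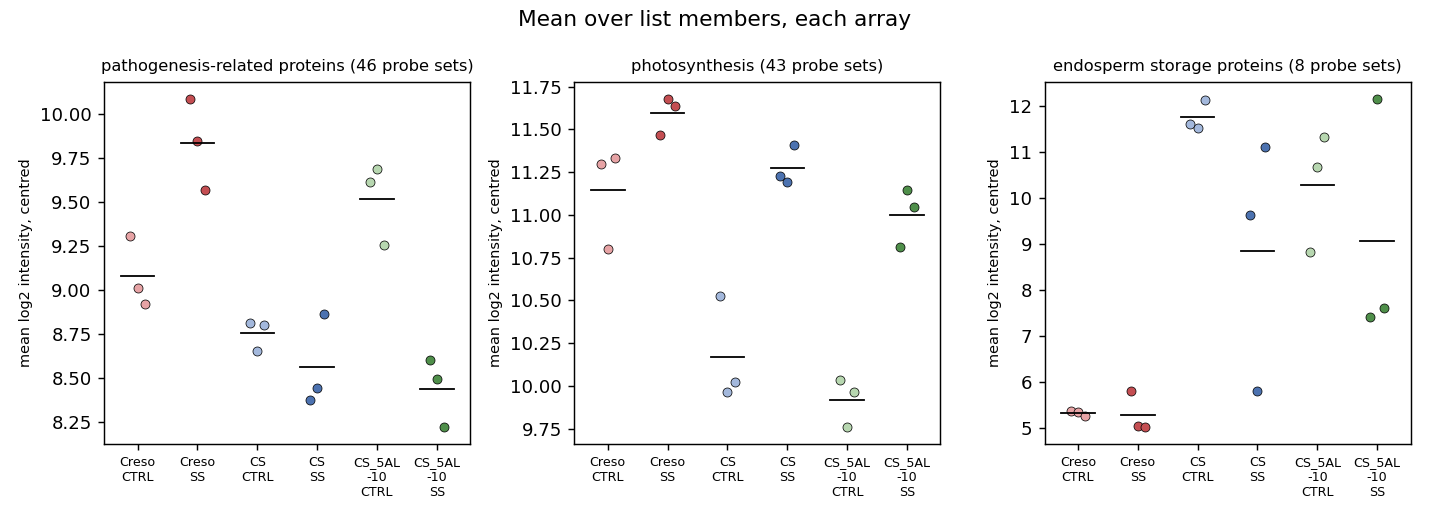
Mean centred log2 intensity over the members of 3 lists on each CTRL and SS array; points are arrays and bars means of 3. The PR list is higher at SS in Creso and lower in CS_5AL-10. The photosynthesis list is higher at SS in Creso and in the bread wheats, which start lower. The storage protein list varies widely among the arrays of CS SS and of CS_5AL-10.

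Probe sets without a name had the highest and the lowest difference in the fit with 16 added. The highest read 6.94, 11.8 and 12.1 in Creso CTRL and 830.2, 849 and 245 at SS. In CS it fell from 206, 132 and 331 to 2.14, 61.1 and 10.7. Its difference was 7.30 (SE 0.74, adjusted p = 1.5e-05), on low values that lay under the array median in Creso CTRL and CS SS. It ran from 4.83 with 64 added to 9.76 with 1, and with 64 added it was below the 5.20 of the UDP-glucosyl transferase. The lowest fell in Creso from 4869.7, 4983 and 8091 to 171, 295 and 328. In CS it read 19.7, 60.5 and 2.17 in CTRL and 26.3, 32.4 and 23.5 at SS, below the array median throughout. Its difference was -4.58 (SE 0.61, adjusted p = 0.000261).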

How the data were processed

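The authors deposited linear intensity values made with MAS5 from 27 Affymetrix Wheat Genome Arrays. The trimmed mean was between 500.24 and 500.29 on every array, as that scaling leaves it. No scanner files were used here. The log2 of value + 16 was used, after shifting every array to a shared median over the 61179 wheat probe sets. The 34089 that passed the filter on low values were fitted as group means over all 27 arrays in limma 3.58.1 (R 4.3.3), with an empirical Bayes trend (prior degrees of freedom 5.52, residual 18) and Benjamini-Hochberg adjustment. The number of arrays limits the precision. The fit was tested on simulated data with known differences.

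Names came from the platform annotation, with symbols updated through the gene table of an assembly of CS (200 of 1273 symbols were not a bare locus number), or from the best Arabidopsis match in the study's table of changed probe sets, of which the first 1420 were held and 1067 had a match. The gene lists use name patterns. Named in the text are called probe sets with the largest differences in each direction, those with opposite responses, leading members of each list, and the ABA and proline genes. Only some of these are named, picked after their values were seen and mostly for calls that held with every array left out. The members and lists were chosen with earlier results of these data known. Alternatives were another added constant (1 or 64), other filters, centring and normalization, the 12 arrays alone, a replicate block, a storage protein covariate, leaving out each array and the methods' t-test.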

Additional observations from a re-analysis of the deposited data

Results flagged for a closer look

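Each of the following responses to SS differed between Creso and CS by a test of the difference itself (limma, adjusted p under 0.05 and at least 2-fold; the plot of list members and the values above give the context). All values are log2 differences. Among defence genes the difference in SS response, Creso minus CS, was 5.57 for the class IV chitinase, 5.48 for the osmotin-like protein, 4.49 for the PR-1-like protein, 4.31 for the allergen V5/Tpx-1-related protein and 3.95 for the basic endochitinase. Among enzymes and lipid transfer proteins it was 6.41 for the UDP-glucosyl transferase, 5.37 for the ent-kaurene oxidase, 4.88 for the transferase family, 6.40 for the ADP-glucose pyrophosphorylase large subunit, 3.61 for the lipid transfer protein LTP4, 2.63 for the glutathione S-transferase, -3.67 for the glycosyltransferase UGT72B1, -3.48 for the glycosyl hydrolase family 1 and -2.73 for the nudix hydrolase. Among transporters and channels it was 2.39 for the nitrate transporter, 2.15 for the lysine and histidine transporter, 1.28 for the oligopeptide transporter OPT and -1.84 for the MIP family aquaporin. Among cell wall genes it was -3.79 for the beta-expansin, -3.47 for the expansin EXP1, -2.94 for the extensin-like protein and 2.74 for the leucine-rich repeat extensin. Among photosynthesis genes it was -3.69 for LHCII type I LHB1B2, -1.43 for LHCII type II LHCB2.1, -1.69 for LHCII type III LHCB3 and -1.80 for the thylakoid ascorbate peroxidase. For the ribonuclease RNS1 it was -3.32. Among stress proteins it was -3.14 for the glycine-rich protein, -2.18 for the hydrophobic protein, -2.80 for the dehydrin XERO2 and 1.65 for the LEA protein-related. Among signalling genes it was 5.69 for the protein kinase family, -3.77 for the dormancy/auxin associated protein, -1.97 for the ERF factor, -2.06 for the protein phosphatase 2C, -2.34 for CIPK10 and 1.90 for the NAM family factor. For probe sets without a name it was 7.30 for the unnamed probe set higher in Creso and -4.58 for the unnamed probe set lower in Creso.

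On an array that the comparison does not use, Creso MS replicate 1, the mean log2 intensity of the 8 endosperm storage protein probe sets was 8.37, above the 5.25 to 5.36 of the Creso CTRL arrays.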

How the results depend on the processing

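The direction of every named difference was kept under every alternative run for those that were called, and calls were lost only for LHCB3 and XERO2 (12 arrays alone) and CIPK10 (2 arrays left out), as given above. The named probe sets were picked mostly for calls that held with every array left out, so these few losses do not describe the calls at large. Of all 861, 350 were called whichever array was left out. None of the 861 probe sets was called in the opposite direction under an alternative. The number of probe sets lower in Creso was 723 without centring, 643 centred on the tested probe sets and 677 after quantile normalization, against 410. It ran from 207 to 547 when each array was left out in turn, and the number higher from 256 to 554, against 451. For Creso SS against CTRL 4789 probe sets passed with no fold threshold, against 2494, and 3 by the methods' t-test after Benjamini-Hochberg adjustment. For CS SS against CTRL these numbers were 4003 and 0, against 2001; without adjustment (p under 0.05, 2-fold) the t-test gave 2080 in Creso and 1679 in CS. This test was run on the log2 values used here, whereas the study ran it on RMA values filtered by detection calls. With each array left out the totals ran from 1995 to 2620 in Creso and from 1317 to 2357 in CS, the lowest in CS without CTRL replicate 2. The splits within each genotype moved with the scaling as well: in Creso 1059 higher and 1335 lower without centring and 1170 and 1203 centred on the tested probe sets, against 1516 and 978.

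Samples with the same replicate number share only a number: correlations of their deviations from the group means lay between -0.10 and 0.15. With the replicate block the difference was called for 409 probe sets higher and 364 lower, and 752 of the 861 calls remained. The storage protein covariate gave 635 higher and 391 lower. The 3 arrays of a group, low values under the array median and names for a minority of probe sets limit what could be called. The causes of these shifts were not tested.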
